A study of Mus musculus with 10 samples.

Results

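The mitochondrial genome carries 37 genes, and all 37 had a row in the deposited table of 55453 gene symbols. They were chosen by symbol alone, as the rows whose name begins with mt-. They comprise 13 protein genes, 2 ribosomal RNA genes and 22 transfer RNA genes. The 10 libraries come from the aortae of 10 male C57BL/6 mice, 5 young (14.5 weeks) and 5 old (92.5 weeks by the labels), with 1 library for each mouse. The mice carried no transgene or treatment in the labels, both ages were killed at the same time, and the fat around each aorta was removed before RNA extraction. The libraries were made from poly(A) RNA with a stranded kit (TruSeq Stranded mRNA). The study asked which genes differ between young and old aortae, and the mitochondrial transcripts were compared here in that design.

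Mitochondria keep a small circular genome whose proteins are all subunits of the respiratory chain or of ATP synthase, while the remaining mitochondrial proteins are made from nuclear genes. Both strands are transcribed as long precursors, from which transfer RNAs are cut out and thereby free the messenger and ribosomal RNAs between them. The heavy-strand precursor carries most genes, and the light-strand precursor carries mt-Nd6 and a few transfer RNAs. Most mitochondrial messengers receive short poly(A) tails, and in several of them the tail completes the stop codon. Copies of mitochondrial DNA have also been inserted into nuclear chromosomes, where they are annotated as pseudogenes.

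Of the 37 genes, 28 lie on the heavy-strand side of the annotation (plus strand) and 9 on the light-strand side (minus strand, mt-Nd6 and 8 transfer RNA genes). Only 23 of the 37 had any count in the 10 libraries, and 9 reached 100 counts in a library, namely 7 protein genes and the 2 ribosomal RNA genes. The 14 genes at 0 in every library were 3 protein genes (mt-Atp8, mt-Atp6 and mt-Nd4l) and 11 transfer RNA genes. By counting error alone, a count of 0 in a library allows up to 0.131 to 0.153 CPM (counts scaled to a fixed library total), depending on the library. It sets no such limit on a transcript whose reads were left uncounted. How reads that also align elsewhere were counted is not given in the sources used here.

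The 3 protein genes without counts lie, together with 3 that had 3 to 20 counts over all libraries (mt-Co2, mt-Co3 and mt-Nd3), in a stretch of the mitochondrial genome that has a near-identical copy on chromosome 1. In the GENCODE M21 annotation of GRCm38, 7 pseudogenes on the minus strand of chromosome 1 match consecutive mitochondrial genes, from chrM:6390-11042 to chr1:24611535-24616188. The matched blocks hold 4140 bases with 2 mismatches. The spans are 4653 bases on the mitochondrial genome and 4654 on chromosome 1, and the gaps between the genes are equal except for 1 base between mt-Nd3 and mt-Nd4l. The match takes in the end of mt-Co1 (Gm29216, 483 bases), mt-Co2 (Gm28661, 681 bases), mt-Atp6 (Gm10925, 678 bases), mt-Co3 (Gm28437, 783 bases), mt-Nd3 (Gm28438, 345 bases), mt-Nd4l (Gm10222, 294 bases) and the start of mt-Nd4 (Gm28439, 876 bases). The first 90 bases of mt-Co2 are shown with those of its copies on chromosomes 1 and 2, since mt-Co2 had almost no counts; capitals mark bases that differ from mt-Co2. On GRCm38 they lie at chrM:7013-7102 (plus strand), chr1:24615476-24615565 (minus strand) and chr2:22587873-22587962 (minus strand).
mt-Co2: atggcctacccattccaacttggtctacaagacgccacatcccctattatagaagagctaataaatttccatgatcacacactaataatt
Gm28661: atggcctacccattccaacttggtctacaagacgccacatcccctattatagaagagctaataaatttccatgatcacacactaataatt
Gm13341: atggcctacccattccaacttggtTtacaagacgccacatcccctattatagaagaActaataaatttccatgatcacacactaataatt

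The chromosome 1 copy equals mt-Co2 over these bases, whereas the chromosome 2 copy differs by C25T and G57A, counted from the first base of mt-Co2. The 5' edge of the chromosome 1 match lies inside mt-Co1 and is shown because it holds the only difference within the matched parts of mt-Co1 and Gm29216, A1066T, counted from the first base of mt-Co1 and printed in capitals. These bases lie at chrM:6390-6423 (plus strand) and chr1:24616155-24616188 (minus strand).
mt-Co1: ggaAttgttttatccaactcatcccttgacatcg
Gm29216: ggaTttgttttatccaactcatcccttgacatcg

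The gene mt-Atp8, at chrM:7766-7969 (plus strand), encodes a short subunit of ATP synthase. It is shown whole because it had no count although no annotated nuclear transcript holds any of its 50-base windows. Capitals mark the 43 bases it shares with mt-Atp6.
mt-Atp8: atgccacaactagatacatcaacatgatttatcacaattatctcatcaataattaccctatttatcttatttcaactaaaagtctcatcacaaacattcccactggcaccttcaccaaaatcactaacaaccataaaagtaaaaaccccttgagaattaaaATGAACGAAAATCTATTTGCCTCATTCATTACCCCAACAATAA

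On the mitochondrial genome mt-Atp8 lies in the 233 bases between the matched parts of mt-Co2 and mt-Atp6, and the pseudogenes on chromosome 1 have a gap of the same 233 bases at that place. The genomic sequence of that gap was not used here.

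Within this stretch, counts were at or near 0 in young and old aortae alike, whereas the genes at its ends, mt-Co1 and mt-Nd4, had between 104194 and 745415 counts per library. The 11 genes wholly inside it, 6 protein and 5 transfer RNA genes, had 28 counts in the 10 libraries together, or 0.000217% of all mitochondrial counts, and 8 of them had none. The 24 genes outside held 7142334 counts (55.3%), and 6 of them, all transfer RNA genes, had none. The genes across its ends, mt-Co1 and mt-Nd4, held the other 5775004 counts (44.7%).

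The 6 protein genes inside are subunits of 3 complexes. The messengers mt-Co2 and mt-Co3 encode subunits of cytochrome c oxidase, the complex that passes electrons to oxygen. mt-Co2 had 20 counts in all, of which 17 came from old replicate 2 and 1 each from young replicate 3, old replicate 4 and old replicate 5. mt-Co3 had 3 counts, all in young replicate 2. The messenger mt-Nd3 encodes a subunit of NADH dehydrogenase (complex I) and had 5 counts, 1 each in young replicates 4 and 5 and 3 in old replicate 2. No count was given to mt-Nd4l, another complex I subunit, or to mt-Atp6 and mt-Atp8, subunits of ATP synthase. The neighbouring mt-Nd4, also of complex I, had between 104194 and 222533 counts per library.

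The share of each gene that also occurs in a nuclear transcript followed the same map. Of the 50-base windows of a gene, 100% were also found in nuclear transcripts for mt-Co2, 99.9% for mt-Co3, 99.5% for mt-Atp6, 98.8% for mt-Nd4l and 98.0% for mt-Nd3. The value was 62.2% for mt-Nd4 and 51.1% for mt-Co1, which had counts. It was 8.19% for mt-Nd2, 7.61% for mt-Nd5, 1.04% for mt-Rnr2 and 0 for mt-Nd1, mt-Nd6, mt-Cytb and mt-Rnr1. Thus 5 of the 6 protein genes with almost no counts were shared over nearly their whole length. The sixth, mt-Atp8, shared no 50-base window with an annotated nuclear transcript. Its last 43 bases, which are also part of mt-Atp6, match Gm10925 at 100% identity. How the counting treated reads with several equally good alignments is not given in the sources used here, and the part of shared sequence in these low counts was not tested. For these 6 genes the counts therefore give no level that can be compared between ages or with other genes.

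**Figure D1:**
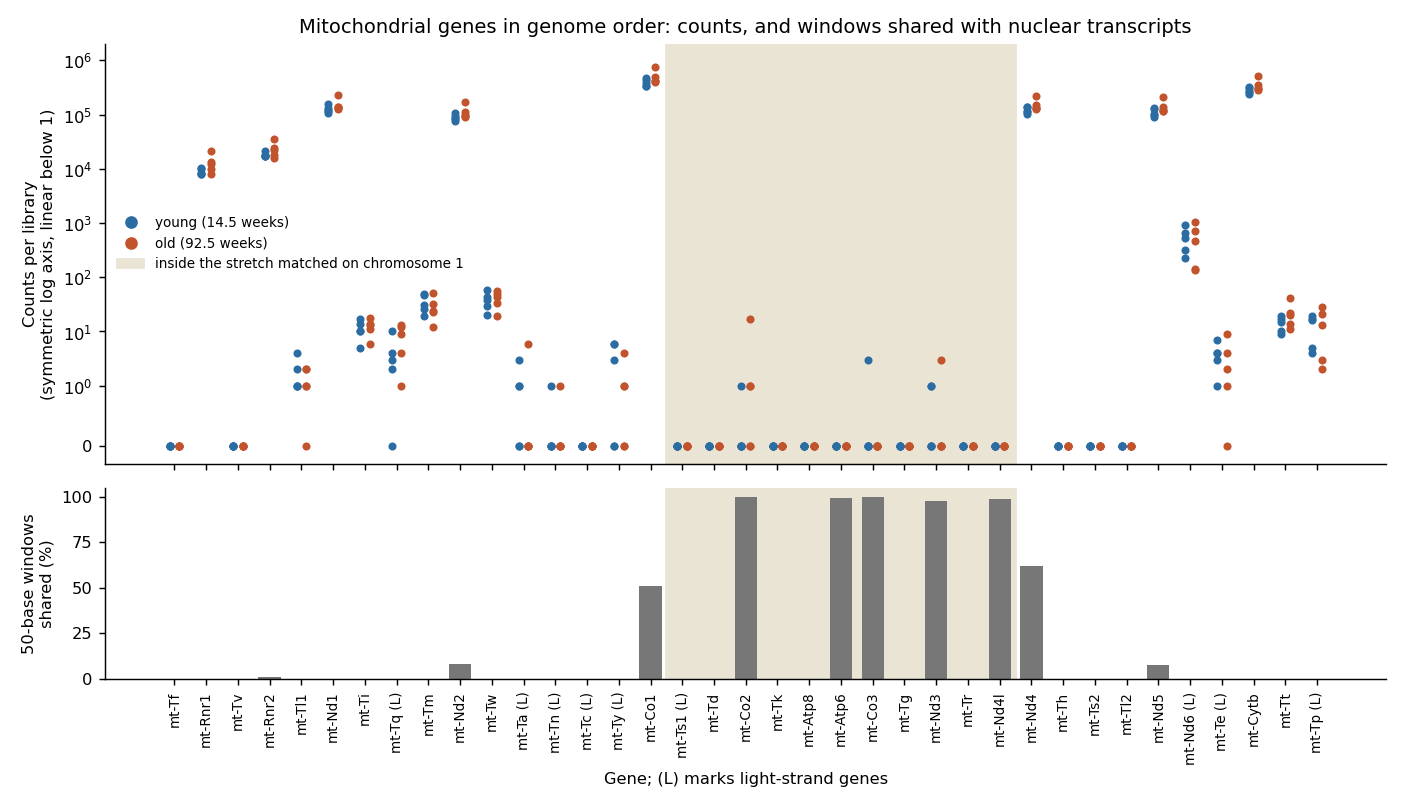
Counts of the 37 mitochondrial genes in genome order, 1 point per library (top, symmetric log axis that is linear below 1), and the percent of each gene's 50-base windows that occur in nuclear transcripts (bottom). The 11 genes inside the shaded stretch that is matched on chromosome 1 sit at or near 0, with 28 counts in all, while mt-Co1 and mt-Nd4 at its edges hold 104194 to 745415 counts in each library.

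The nuclear copies themselves had few counts. Among the 15 nuclear genes with a transcript that shares a window with a mitochondrial gene, Gm29216 had 454 counts, Gm13340 had 340 and Gm13341 had 171 over the 10 libraries, and each of the others had 10 or fewer. The counts of Gm29216, the chromosome 1 copy of the end of mt-Co1, came almost wholly from young replicate 2, with 448, against 0 to 2 in each other library. The same library was the only one with counts for mt-Co3. Its mt-Co1 level was not unusual, at 341269 normalized counts in a group that ranged from 341228 to 465771. The skeletal muscle markers also stood high in young replicate 2, at 1078 summed normalized counts against 168 to 256 in the other 9 libraries; their part was not tested. Gm13340, which matches the whole of mt-Co1 on chromosome 2 at 97.6% identity, had 18 to 52 counts in every library, and Gm13341, which matches mt-Co2 at 95.9%, had 9 to 31. Gm28661, identical to mt-Co2 over its length, had 10 in all, and counts did not follow similarity among the other copies, with 4 for Gm13339 (96.7% identical to part of mt-Nd2) and 8 for Gm4076 (95.2% identical to part of mt-Nd5).

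Mitochondrial genes held 4.50% to 6.51% of the counts in 9 of the 10 libraries, young and old, and 11.0% in old replicate 2. The 37 genes held 6.17%, 4.63%, 6.22%, 4.80% and 4.50% of all counts on genes in young replicates 1 to 5, and 6.51%, 11.0%, 5.19%, 5.49% and 5.55% in old replicates 1 to 5. The means were 5.26% ± 0.855 (SD, n = 5) in young and 6.75% ± 2.43 (SD, n = 5) in old aortae, and the groups overlapped. The difference of 1.48 percentage points was smaller than the SD of the old group, and it was 0.421 percentage points without old replicate 2. Counting error is small beside this spread, since 95% Wilson intervals of the shares reached at most 0.0138 percentage points to either side and cover counting error only. In whole tissue, more mitochondrial RNA per cell and more cells rich in mitochondria cannot be told apart.

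By class, the protein genes held nearly all of it. Their share was 5.14% ± 0.842 in young and 6.58% ± 2.36 in old aortae (n = 5 each, SD). The ribosomal RNA genes held 0.124% ± 0.0143 and 0.170% ± 0.0715, and the transfer RNA genes 0.000567% ± 0.000122 and 0.000614% ± 0.000302. In each class the ages overlapped and old replicate 2 was the highest library. Without that library the old minus young difference was 0.405 percentage points for protein genes and 0.0166 for ribosomal RNA genes, and it turned to -7.4e-05 for transfer RNA genes.

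**Figure D2:**
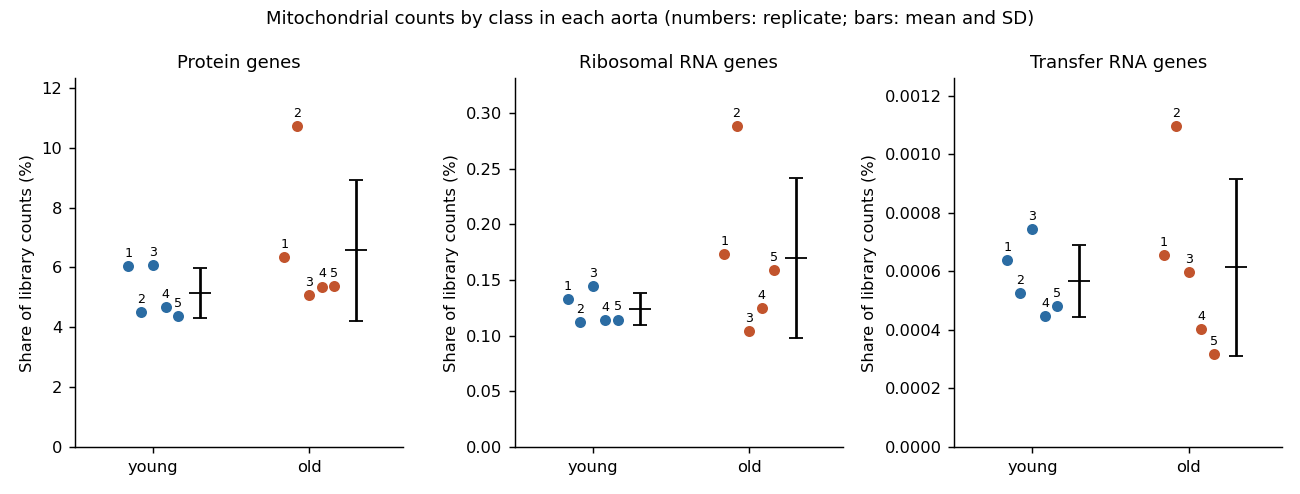
Share of each library's counts (percent) held by the mitochondrial protein, ribosomal RNA and transfer RNA genes, with a linear axis from 0 in each panel, 1 point per mouse labelled by replicate number, and the mean and SD of 5 mice beside it. Old replicate 2 is the highest point in all 3 panels, and the ages overlap in each. Old replicate 1 also lies above every young mouse for protein genes, as do old replicates 1 and 5 for ribosomal RNA genes. Old replicate 3 lies below every young mouse for ribosomal RNA genes, as do old replicates 4 and 5 for transfer RNA genes.

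Some marker sums differed in the libraries with the highest mitochondrial shares. The 5 endothelial markers, none at 0 and none called between ages, summed to 25593 and 31215 normalized counts in young replicates 1 and 3, the young libraries with the highest mitochondrial share, against 18226 to 19825 in the other young libraries. Among old libraries they were highest in replicate 2, at 21387, against 9118 to 14967 in the others. The sum of the 8 smooth muscle markers was lowest in the same 3 libraries of their groups. This sum was 832374 and 884920 in young replicates 1 and 3 against 960038 to 984391 in the other young libraries. In old replicate 2 it was 778407 against 887857 to 944812 in the other old libraries. Single markers did not all follow the sum. Lmod1 was highest among young libraries in replicate 1, at 18825, and Myh11 was lowest among old libraries in replicate 3, at 204480. Old replicate 1 went against both patterns: its mitochondrial share of 6.51% was the second highest of the old group, but its smooth muscle sum of 944812 was the highest and its endothelial sum of 12346 was below that of old replicate 4, at 14967. Between ages the endothelial sum was lower in old aortae, with 9118 to 21387 against 18226 to 31215, so that it did not follow the mitochondrial share across the groups. Within the old group, replicate 2 also had the highest sums of the 6 white adipocyte markers (8725 against 2986 to 5363), the 6 brown adipocyte markers (2421 against 1651 to 2008) and the 5 erythroid markers (4560 against 809 to 3037). Among young libraries the erythroid sum was also highest in replicates 1 and 3, at 3640 and 3397 against 718 to 2298. The white and brown adipocyte sums were highest in young replicate 1, at 24842 and 3791. In young replicate 3 they were 7531 and 1797, below the young medians of 7753 and 2604. For the cardiac muscle, macrophage, fibroblast, skeletal muscle, T cell, B cell and Schwann cell markers, the sum in old replicate 2 lay within the range of the other old libraries. No marker of any of these 12 lists was at 0 in every library. The part of cell composition in the mitochondrial share was not tested.

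The labelled tissue was checked with the smooth muscle markers, which were all present and summed to 778407 to 984391 normalized counts, against 2386 to 4273 for the 8 cardiac muscle markers. Each library held between 19640401 and 22886153 counts on genes.

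Heavy-strand messengers with counts were mt-Co1, mt-Cytb, mt-Nd1, mt-Nd2, mt-Nd4 and mt-Nd5, and all 6 had higher fitted values in old aortae without passing the test. Of the 37 genes, 14 passed the filter on low counts (7 protein, 2 ribosomal RNA and 5 transfer RNA genes) and were tested by edgeR's quasi-likelihood test, with p-values adjusted by the Benjamini-Hochberg method over all 14614 tested genes. None was called at an adjusted p below 0.05, where 11.5% of all tested genes were called (6.48% higher and 4.99% lower in old aortae). None of the 14 had an unadjusted p below 0.05 either, a limit that 26.7% of all tested genes passed. The adjusted p-values ranged from 0.227 to 0.969. No member had normalized counts that did not overlap between the ages, as 9.92% of tested genes had. DESeq2, which called 13.6% of the genes it tested, called no member, and mt-Co2 alone had an unadjusted p below 0.05 there, without an adjusted p. limma-voom called none, and none had an unadjusted p below 0.05.

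The log2 fold change (old over young) was positive for 12 of the 14 tested genes, with a median of 0.33 against 0.00 over all tested genes. Without old replicate 2 the median fell to 0.08, and 9 of the 14 were positive. These p-values do not show that the ages were alike.

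The messenger mt-Co1 encodes the catalytic subunit of cytochrome c oxidase. It had 440616, 341269, 465771, 362147 and 341228 normalized counts (counts divided by the library's size factor) in young replicates 1 to 5 and 491860, 812272, 382593, 396860 and 386753 in old replicates 1 to 5. Old replicate 2 stood apart, old replicate 1 also lay above every young library, and the other 3 old libraries lay within the young range. The log2 fold change was 0.35 (SE 0.21, adjusted p = 0.314 by edgeR's quasi-likelihood test) and 0.09 without old replicate 2.

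Cytochrome b, the product of mt-Cytb, is the only subunit of complex III made from the mitochondrial genome. Its messenger had 322155, 263843, 322843, 260225 and 243969 normalized counts in the young replicates and 349387, 570039, 264821, 283546 and 295865 in the old ones. Old replicates 1 and 2 lay above every young library, and the other 3 within the young range. The log2 fold change was 0.33 (SE 0.20, adjusted p = 0.318 by edgeR's quasi-likelihood test) and 0.08 without old replicate 2.

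The other messengers of the heavy strand encode membrane subunits of complex I. For mt-Nd1 the normalized counts averaged 126023 ± 19203 (young) and 153434 ± 52846 (old; SD, n = 5 each), a log2 fold change of 0.29 (SE 0.19, adjusted p = 0.373 by edgeR). For mt-Nd2 the means were 90232 ± 11707 and 113230 ± 42413, a log2 fold change of 0.34 (SE 0.21, adjusted p = 0.334 by edgeR). For mt-Nd4 they were 122342 ± 17000 and 153073 ± 51609, a log2 fold change of 0.33 (SE 0.19, adjusted p = 0.296 by edgeR). For mt-Nd5 they were 110189 ± 18122 and 141074 ± 52118, a log2 fold change of 0.37 (SE 0.21, adjusted p = 0.304 by edgeR). All 4 overlapped between ages, and without old replicate 2 their log2 fold changes were 0.05 for mt-Nd1, 0.07 for mt-Nd2, 0.10 for mt-Nd4 and 0.11 for mt-Nd5.

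In old replicate 2 the 6 heavy-strand messengers stood at 1.91 to 2.07 times the median of the other old libraries. The ribosomal RNAs were raised there to a like extent, at 2.16 times that median for mt-Rnr1 and 1.99 times for mt-Rnr2. For mt-Nd6 the value was 3.98 times, against a median of widely spread libraries. Its normalized counts were 1143 in old replicate 2, 714.5 in old replicate 1, and 138.8 and 133.2 in old replicates 4 and 5.

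**Figure D3:**
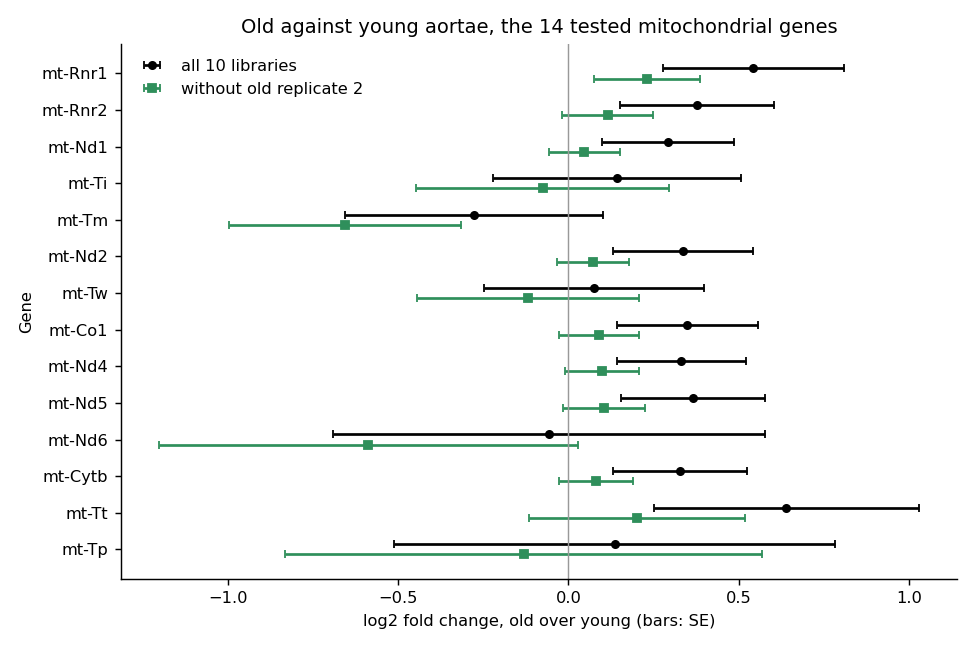
Log2 fold change of old over young aortae (x axis, bars are SE) for the 14 tested mitochondrial genes (y axis), fitted with all 10 libraries (black circles) and without old replicate 2 (green squares). With all libraries 12 of 14 values are above 0 and none is called, and without old replicate 2 the 6 heavy-strand messengers lie between 0.05 and 0.11.

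The proportions among the heavy-strand messengers were nearly the same in every mouse. Of the counts on the 13 protein genes, mt-Co1 held 34.7% ± 0.555 in young and 35.0% ± 0.664 in old aortae (n = 5 each, SD). mt-Cytb held 25.2% ± 0.628 and 25.1% ± 0.611, mt-Nd1 11.2% ± 0.643 and 11.0% ± 0.674, mt-Nd4 10.9% ± 0.278 and 10.9% ± 0.259, mt-Nd5 9.80% ± 0.333 and 10.0% ± 0.152, and mt-Nd2 8.05% ± 0.225 and 8.02% ± 0.194. Every one of these shares overlapped between ages. Over the 10 libraries the coefficient of variation of these 6 shares was 1.70% to 5.74%. From the lowest to the highest library they varied between 1.05-fold (mt-Co1) and 1.19-fold (mt-Nd1). By the same measure the share of all mitochondrial genes in the library varied 2.44-fold, with old replicate 2 the highest. In old replicate 2 each of the 6 held a share within the range of the other 9 libraries except mt-Nd4, which at 10.6% was the lowest of the 10 by a margin smaller than the SD.

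**Figure D4:**
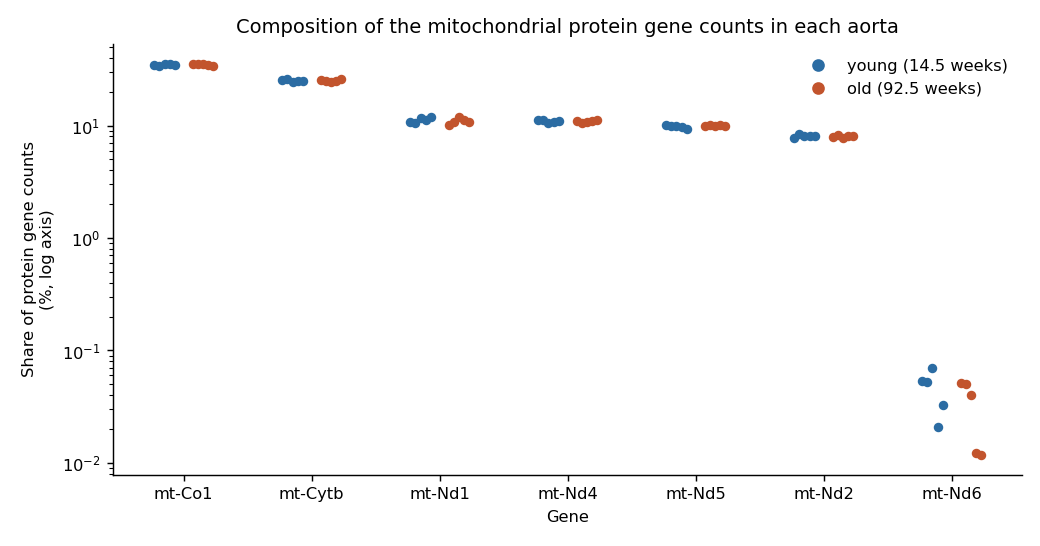
Share of the counts on mitochondrial protein genes (percent, log axis) held by each of the 7 protein genes with counts, 1 point per library, young in blue and old in orange. The 6 heavy-strand genes lie in tight groups at every library, while mt-Nd6 spreads from 0.0117% to 0.0705%.

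Levels were compared between genes per kb of annotated length. In young aortae mt-Co1 stood highest, at 11569 ± 1987 CPM per kb, and mt-Cytb at 11314 ± 1747 did not differ from it beyond the spread. They were followed by mt-Nd1 at 6030 ± 1022, by mt-Nd4 at 4067 ± 661 and mt-Nd2 at 3980 ± 592, whose spreads overlap, and by mt-Nd5 at 2768 ± 518 CPM per kb (SD, n = 5). The ribosomal RNAs mt-Rnr2 and mt-Rnr1 had 521 ± 53.9 and 431 ± 63.8 CPM per kb, and mt-Nd6 had 47.4 ± 25.7. Since the libraries were made from poly(A) RNA, levels are not comparable between RNAs with unlike tails. The tail of mt-Nd6 was not examined. The order was the same in the means of the old aortae, at 14937 for mt-Co1, 14404 for mt-Cytb, 7492 for mt-Nd1, 5190 for mt-Nd4, 5096 for mt-Nd2 and 3613 for mt-Nd5.

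The order changed with the bases over which counts were divided. When counts were divided by the number of 50-base windows that no nuclear transcript shares, the young means per 1000 windows were 24452 CPM for mt-Co1, 11821 for mt-Cytb, 11164 for mt-Nd4, 6355 for mt-Nd1, 4549 for mt-Nd2 and 3079 for mt-Nd5. On this scale mt-Nd4 stood above mt-Nd1, whereas per kb of length it stood below. The scale also depends on the window length. With 100-base windows the shared part was 30.8% for mt-Co1 and 60.8% for mt-Nd4, against 51.1% and 62.2% with 50-base windows. How many reads the shared bases of mt-Co1 and mt-Nd4 collected was not tested.

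The ribosomal RNAs form the small and large subunits of the mitochondrial ribosome. The small-subunit RNA mt-Rnr1 had 9917, 8044, 10528, 8206 and 8266 normalized counts in young replicates 1 to 5 and 13282, 23039, 7517, 9454 and 11857 in old replicates 1 to 5. Thus 3 old libraries exceeded every young one and the lowest of all was old replicate 3. The log2 fold change was 0.54 (SE 0.27, adjusted p = 0.227 by edgeR's quasi-likelihood test), the smallest adjusted p of the tested mitochondrial genes, and 0.23 without old replicate 2. The large-subunit RNA mt-Rnr2 had 17948, 17044, 20920, 16997 and 17291 normalized counts in young and 24525, 38582, 14686, 17095 and 21681 in the old libraries. Its log2 fold change was 0.38 (SE 0.23, adjusted p = 0.323 by edgeR) and 0.11 without old replicate 2.

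Relative to messengers, mt-Rnr1 varied little among young mice and more among old ones. Per 100 counts on protein genes there were 0.782 to 0.844 mt-Rnr1 counts in the young and 0.692 to 1.04 in the old libraries. There were 2.02 ± 0.125 mt-Rnr2 counts per mt-Rnr1 count in young and 1.82 ± 0.0999 in old aortae (n = 5 each, SD), and the groups overlapped, with 1.81 in young replicate 1 and 1.95 in old replicate 3. Since the libraries were made from poly(A) RNA, these counts do not give the amount of ribosomal RNA in the tissue.

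The light-strand messenger mt-Nd6, which encodes a complex I subunit, did not keep the proportions of the heavy-strand messengers. Its normalized counts were 672.7, 532.3, 931.2, 216.3 and 321.7 in young replicates 1 to 5 and 714.5, 1143, 436.2, 138.8 and 133.2 in old replicates 1 to 5. Both groups spanned most of the whole range, which was 8.58-fold, against 2.55-fold for its neighbour on the opposite strand, mt-Nd5. In both age groups the libraries numbered 4 and 5 were the lowest. The log2 fold change was -0.06 (SE 0.63, adjusted p = 0.969 by edgeR's quasi-likelihood test), and -0.59 without old replicate 2. The SE of the 6 heavy-strand messengers was 0.19 to 0.21.

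The ratio to a heavy-strand messenger also had replicates 4 and 5 as the lowest of both groups. For 10000 mt-Cytb counts there were 20.9, 20.2, 28.8, 8.31 and 13.2 mt-Nd6 counts in young replicates 1 to 5 and 20.5, 20.1, 16.5, 4.90 and 4.50 in old replicates 1 to 5. In both groups replicates 1 to 3 lay at 16.5 or above and replicates 4 and 5 at 13.2 or below. Old replicate 2, which stood apart in the heavy-strand messengers, had a ratio like those of old replicate 1 and young replicate 2. The share of mt-Nd6 in the protein gene counts was 0.0460% ± 0.0194 in young and 0.0331% ± 0.0199 in old aortae (n = 5 each, SD), with a coefficient of variation of 49.8% over the 10 libraries.

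The transfer RNA genes of the same strand had the same libraries at the bottom. The 8 light-strand transfer RNA genes summed to 27, 32, 42, 8 and 11 counts in the young and 48, 47, 28, 8 and 4 in the old libraries. The 14 heavy-strand transfer RNA genes summed to 104, 85, 120, 94 and 94 counts in the young and 95, 168, 109, 81 and 65 in the old ones, so that old replicates 4 and 5 were also the lowest old libraries on the heavy strand. The lowest and highest library differed 12-fold on the light strand and 2.58-fold on the heavy strand. For mt-Tp, the transfer RNA for proline and the light-strand transfer RNA gene with the most counts, the counts were 19, 17, 16, 4 and 5 in the young and 28, 21, 13, 3 and 2 in the old libraries. The labels name no processing batch, and whether the replicate numbers mark one was not tested. The strand setting of the counting is not given in the sources used here, so that counts of opposite-strand transcripts on these genes cannot be told apart from their own.

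**Figure D5:**
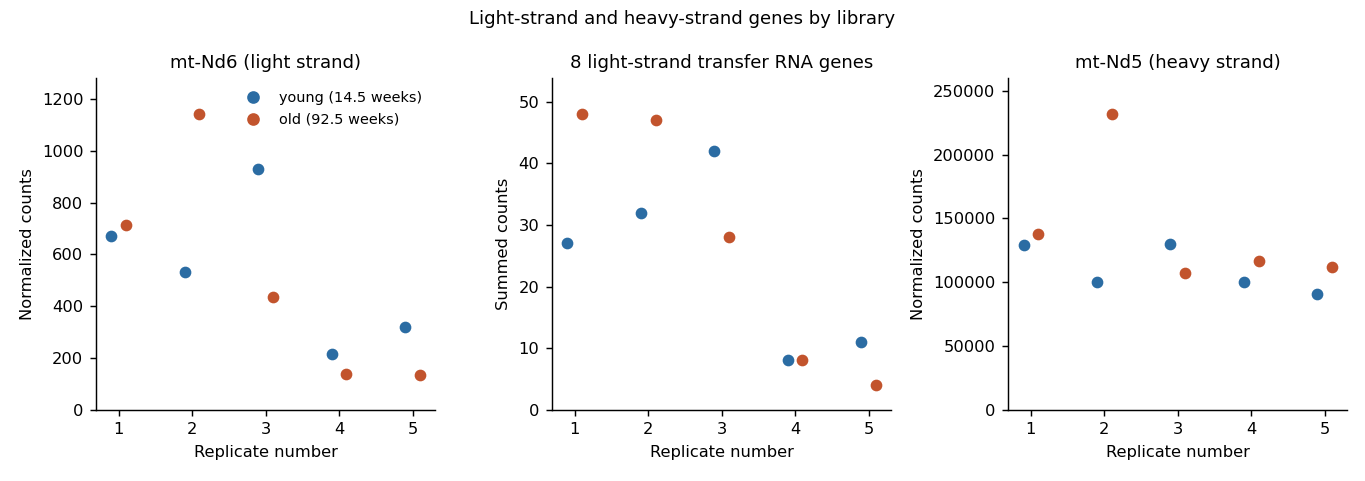
Normalized counts of mt-Nd6 (left), summed counts of the 8 light-strand transfer RNA genes (middle) and normalized counts of the heavy-strand gene mt-Nd5 (right) in each library, by replicate number and with linear axes from 0. Libraries 4 and 5 of both ages are the lowest 4 for mt-Nd6 and for the light-strand transfer RNA genes. For mt-Nd5 young replicates 4 and 5 are also the lowest young libraries, by a narrow margin over young replicate 2, while old replicates 4 and 5 lie above old replicate 3.

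Transfer RNAs carry amino acids to the ribosome and have no poly(A) tail when mature, and their counts were low. The 22 genes are 59 to 75 bases long in the annotation, and 11 of them had no count in any library. The 5 that passed the filter were mt-Ti, mt-Tm, mt-Tw, mt-Tt and mt-Tp, the transfer RNAs for isoleucine, methionine, tryptophan, threonine and proline. The most abundant was mt-Tw, with 20 to 57 counts in the young and 19 to 55 in the old libraries, and a log2 fold change of 0.08 (SE 0.32, adjusted p = 0.911 by edgeR). mt-Tm had 19 to 49 counts in the young and 12 to 51 in the old libraries and a log2 fold change of -0.28 (SE 0.38, adjusted p = 0.695 by edgeR), or -0.66 without old replicate 2. mt-Tt had 9 to 19 counts in the young and 11 to 42 in the old libraries, and its log2 fold change of 0.64 (SE 0.39, adjusted p = 0.325 by edgeR) became 0.20 without old replicate 2. For mt-Ti the log2 fold change was 0.14 (SE 0.36, adjusted p = 0.845 by edgeR) and for mt-Tp 0.14 (SE 0.65, adjusted p = 0.922 by edgeR). Each of these genes abuts a messenger or another transfer RNA gene, and uncut precursors and mature ends could not be separated in gene counts.

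Few nuclear genes that act on the mitochondrial genome or its RNAs were called between ages. Of a list of 79 such genes, 78 were in the table and tested, and 3 were called between ages by edgeR's quasi-likelihood test, beside 11.5% of all tested genes. The median log2 fold change of the list was 0.00, as it was over all tested genes. The list spans transcription (11 tested, 0 called), nucleoid and replication (13 tested, 0 called), RNA processing (14 tested, 0 called), RNA stability and decay (9 tested, 1 called), RNA modification (13 tested, 1 called), translation (11 tested, 0 called) and nuclear regulators (7 tested, 1 called).

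The called genes all had normalized counts that did not overlap between the ages. Mrm1, a methyltransferase of the large mitochondrial ribosomal RNA, rose from 169.5 to 211.1 normalized counts in young to 244.9 to 284.4 in the old libraries, a log2 fold change of 0.44 (SE 0.09, adjusted p = 0.00586 by edgeR). Esrra, the oestrogen-related receptor alpha that activates nuclear genes of mitochondrial proteins, rose from 399.8 to 483.5 in young to 503.3 to 597.0 in the old libraries, a log2 fold change of 0.35 (SE 0.07, adjusted p = 0.00571 by edgeR). Grsf1, an RNA-binding protein of the mitochondrial RNA granules, fell from 1033 to 1117 in young to 908.4 to 985.3 in old aortae, by 0.16 on the log2 scale (SE 0.05, adjusted p = 0.0479 by edgeR). The call of Grsf1 was lost in 12 of 18 alternatives, among them the omission of any library other than young replicate 1 or old replicate 4, while those of Mrm1 and Esrra held in all 18.

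The core factors showed no called difference. Tfam, which packages the mitochondrial genome and starts its transcription, had a log2 fold change of 0.06 (SE 0.06, adjusted p = 0.579 by edgeR). Polrmt, the mitochondrial RNA polymerase, had 0.00 (SE 0.13, adjusted p = 0.994 by edgeR). Lrpprc, which stabilizes heavy-strand messengers, had -0.09 (SE 0.07, adjusted p = 0.455 by edgeR), and Ppargc1a, a coactivator of mitochondrial biogenesis, had -0.09 (SE 0.21, adjusted p = 0.833 by edgeR). In old replicate 2, with the raised mitochondrial counts, Tfam stood at 469.7 normalized counts, the lowest of the old libraries, and Polrmt at 522.0, within the young range of 330.2 to 574.6.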

How the data were processed

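The authors trimmed reads with fastp (0.20.0 in the submitters' processing notes), aligned them to GRCm38 with STAR (2.7.0f) under GENCODE M22 and counted them per gene with featureCounts of Subread (1.6.4). The deposited table holds these raw counts for 10 libraries, from 19640401 to 22886153 per library. The strand setting and the treatment of reads with several alignments are not given in the sources used here.

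Positions, lengths and transcript sequences came from GENCODE M21 on GRCm38, whose 37 mitochondrial genes all matched by symbol. Shared windows of 50 and 100 bases were sought in 141730 nuclear transcripts on both strands. Nuclear genes that shared a 50-base window were aligned with blastn 2.17.0. Genes were filtered with filterByExpr and tested with edgeR 4.0.16 (quasi-likelihood, robust, TMM, no covariates, Benjamini-Hochberg) under R 4.3.3, with DESeq2 1.42.0 and limma-voom (limma 3.58.1) as alternatives, as well as other scalings, other low-count filters, a replicate block and the omission of each library. Normalized counts were counts over DESeq2 size factors. Sums and ratios of genes were described without tests. The fits were tested on simulated data.

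The genes named were all protein and ribosomal RNA genes, the transfer RNA genes that passed the filter, called machinery genes with Tfam, Polrmt, Lrpprc and Ppargc1a, and the 3 nuclear copies with the highest counts, with other copies named for their sequence. Members and lists were chosen with earlier results of these data known.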

Additional observations from a re-analysis of the deposited data

Results flagged for a closer look

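In 68 groups of 5 libraries examined, 12 held a library whose gap to its nearest neighbour took more of the group's range than Dixon's limit allows, where chance gives about 1 in 20; the values are not independent of each other. Old replicate 2 accounted for 9 of them. Its mitochondrial share of the library was 11.0% against 5.19% to 6.51% in the other old mice, and its protein gene share was 10.7% against 5.09% to 6.33%. Its normalized counts were 812272 for mt-Co1 (others at most 491860), 570039 for mt-Cytb (349387), 247292 for mt-Nd1 (139908), 242492 for mt-Nd4 (151667), 231977 for mt-Nd5 (137543), 187244 for mt-Nd2 (109549) and 45.8 for mt-Tt (20.5).

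In young replicate 3, mt-Rnr2 had 20920 normalized counts against 16997 to 17948 in the other young mice. In young replicate 5 there were 0.844 mt-Rnr1 counts per 100 protein gene counts against 0.782 to 0.797. In young replicate 2 the pseudogene Gm29216 had 448 counts against 0 to 2 in the other young libraries.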

How the results depend on the processing

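No mitochondrial gene was called in any of 18 alternatives, while the count over all genes fell to 1132 without young replicate 4 and reached 2367 without young replicate 1, against 1676 with all libraries. The adjusted p-values of edgeR's quasi-likelihood test and the alternatives stayed at or above 0.115 for mt-Rnr1, the lowest. The heavy-strand messengers and both ribosomal RNAs had positive log2 fold changes throughout. The sign turned for mt-Ti (-0.076 without old replicate 2 to 0.34 without young replicate 3), mt-Tw (-0.12 without old replicate 2 to 0.27 without young replicate 3), mt-Nd6 (-0.59 without old replicate 2 to 0.24 without young replicate 3) and mt-Tp (-0.32 without old replicate 1 to 0.42 without old replicate 5, and -0.22 with limma-voom); the cause was not tested. The machinery count ranged from 2 to 5; without young replicate 1 it was 5, with Mtif3 and Pprc1 added (named after their values were seen).

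The correlations between same-numbered libraries were -0.30, -0.07, 0.10, -0.05 and 0.13 in order of number. Of 10 libraries, 4 correlated best with their own number, and the numbers were not taken as pairs. These correlations compare single numbers and not groups of numbers, so they cannot decide whether several numbers share a batch. For mt-Nd6 and the light-strand transfer RNA genes the same numbers were lowest in both ages, as given above. With the replicate block, 1261 genes were called in all, 0 mitochondrial and 2 of the machinery, and mt-Nd6 had a log2 fold change of -0.32.

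Depth leaves counting error small for the 9 abundant genes and large for the transfer RNAs, none of which exceeded 57 counts in a library.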
